A study of Mus musculus with 6 samples.

Results

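The genes described here encode proteins of the mitochondrial respiratory chain, of the ATP synthase and of the mitochondrial ribosome, all made from nuclear genes. They were taken by name from the authors' deposited table of changes after p63 excision: every entry starting with NDUF, ATP5, UQCR, MRPL or MRPS, the entries SDHA to SDHD, and COX followed by a digit from 4 to 8 and a letter. The muscle isoforms COX6A2, COX7A1 and COX8B were left out. This gave 92 of the 16381 entries, 44 of the respiratory chain and ATP synthase and 48 of the mitochondrial ribosome.

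The respiratory chain passes electrons from NADH (complex I) and succinate (complex II) through complex III to oxygen at complex IV, and the ATP synthase uses the proton gradient so built. A few core subunits of these complexes are encoded by mitochondrial DNA and are translated by mitochondrial ribosomes, whose proteins are all imported from the cytosol. Squamous carcinomas arise from stratified epithelium, in which p63 is the master transcription factor of the basal layer.

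RNA came from whole orthotopic tumours, 3 p63-intact and 3 p63-excised, on Illumina bead arrays. Both groups carried the genotype p53+/-, p63L/L; K14-CreER on a mixed c57BL/6 - CD1 background. The primary carcinoma was induced with weekly DMBA, a chemical carcinogen, and its cells were transplanted into Nude mice. After 13 days of growth the hosts received tamoxifen (p63-excised) or vehicle (p63-intact) for 5 days, and tumours were taken 1 to 3 days later. Tamoxifen treatment and loss of p63 cannot be told apart. The keratin 14 promoter limits Cre to keratin 14-expressing cells, while the RNA of whole tumours can also hold that of host stroma, vessels, immune cells and muscle. In such bulk RNA, fewer cells of a type and less RNA per cell cannot be told apart. Whether each tumour had a mouse of its own is not in the labels, and the p-values then cover only the spread between these samples, part of which may be technical.

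The authors' deposited table lists only entries with an unadjusted p up to 0.462. In RefSeq (assembly GRCm38.p6), 171 protein-coding genes have a symbol that follows the same naming rule; 91 of them are among the members, and the other 80 are not analysed here. Counts and medians below therefore leave out genes whose differences were smallest relative to their spread. This thins the values around 0, so medians close to 0 can jump from one side to the other. No table used here pairs array probes with gene names, so values are given per gene over the groups and not per tumour. A standard error (SE) was obtained for each gene as its log2 change divided by its t score, both from the authors' deposited table. The median SE of the members was 0.12, and 15 of the 92 had a mean log2 level under 5.5, close to the lowest listed level of 4.62, where changes are compressed.

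Krt14 and Krt5, keratins of basal squamous cells, had mean log2 levels of 14.02 and 11.65 per the authors' deposited table. Trp63, the targeted gene, had a log2 change of -0.25 ± 0.113 (SE, p = 0.0639) per the authors' deposited table, and whether its probe lies inside the excised exons is unknown here. In a limma test over the 13727 probes detected on at least 3 arrays, 4.4% (604 probes) passed; 50 passed when arrays were scaled to a common median, and 186 without p63-intact array 3. On the arrays, 11964 to 16096 of 45281 probes were detected, with the lowest number and the highest median signal on p63-excised array 2. Leaving that array out was not possible for the members, since the authors' deposited table gives no values per array.

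The members showed small differences in both directions, and none passed when all 45281 probes, the most tests there can be, were counted as tests. Of the 92 members, 38 had positive and 54 negative log2 changes (p63-excised minus p63-intact) per the authors' deposited table, with a median of -0.11 and quartiles of -0.23 and 0.16. Of all listed entries, 49.0% were negative, with a median of 0.05. The negative share at mean log2 levels of 5.5 and above was 58.4% for members and 52.0% for all entries. Their medians at these levels were -0.14 and -0.10 per the authors' deposited table. With Benjamini-Hochberg adjustment of the authors' p-values over all 45281 probes of the array, 0 members passed at 0.05, against 1.16% of all listed entries. At an unadjusted p under 0.05 there were 24 members, against 19.9% of all listed entries; 13 were higher and 11 lower in p63-excised tumours, against 9.31% and 10.6% of all entries per the authors' deposited table. Of the members, 7 differed by more than 1.5-fold per the authors' deposited table, 1 of them higher (Mrpl14) and 6 lower (Uqcrb, Mrpl24, Mrpl36, Mrps35, Mrps30 and Atp5g3), against 2.89% and 2.83% of all entries. At mean log2 levels of 5.5 and above, 6 of the 77 members there and 19.6% of all entries differed by so much per the authors' deposited table. For 82 members the 95% interval of the log2 change, computed from the authors' deposited table, lay within 2-fold in either direction. The other 10 were Atp5g3, Uqcrb, Cox6c, Mrpl4, Mrpl24, Mrpl36, Mrps18a, Mrps28, Mrps30 and Mrps35, for which a 2-fold difference is not outside the interval.

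Most members lie at higher signal than the bulk of the table, so they were also set against entries of like signal. At mean log2 levels of 5.5 and above per the authors' deposited table, 42.9% of entries had an unadjusted p under 0.05, compared with 23 of 77 members (29.9%). At a level of at least 7 the shares were 42.0% of all entries and 20 of 56 members (35.7%) per the authors' deposited table. The median size of the log2 change, sign aside, was 0.32 for entries at 5.5 or above and 0.23 for members there. The members thus had smaller differences and fewer low p-values than the entries of like signal listed beside them, as a description without a test. After subtracting the median change of entries of like level (10 equal bins), the members' median per the authors' deposited table was -0.03, and 53.3% were below 0 in place of 58.7%.

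**Figure D1:**
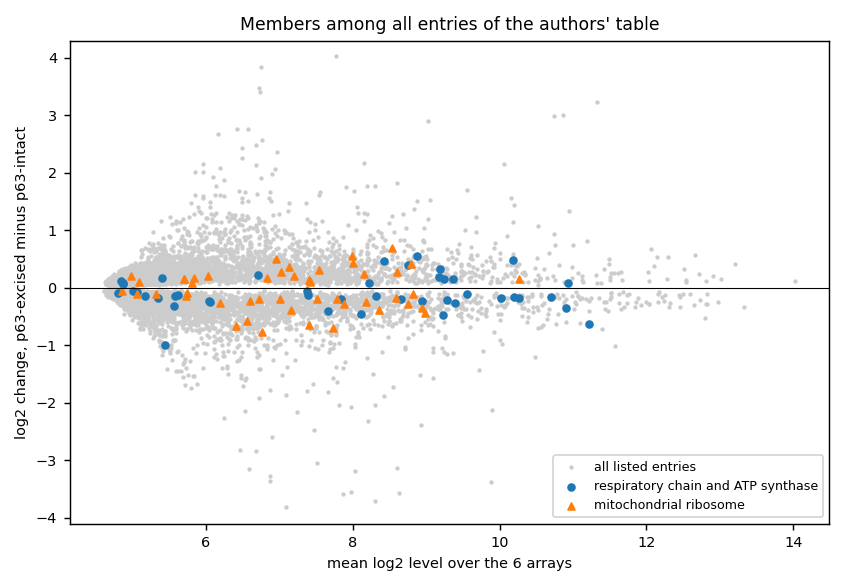
Each point is 1 entry of the authors' deposited table, with the mean log2 level over the 6 arrays on the x axis and the log2 change (p63-excised minus p63-intact) on the y axis; grey points are all 16381 entries, blue circles the 44 respiratory chain and ATP synthase members and orange triangles the 48 mitochondrial ribosome members. The members span log2 changes from -1.0 to 0.70, while all entries span -3.82 to 4.04; the empty band around 0 is the part of the comparison with p above 0.462.

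How arrays are brought to a common scale can move the zero of such changes. When the probe intensities were scaled to 1 median instead of being quantile normalized, the median log2 change of the 13727 tested probes moved from -0.03 to -0.22, a shift of 0.19. Of the members, 19 had a log2 change above 0.19 and 28 one below -0.19 per the authors' deposited table, and the other 45 lay within that shift. The measured shift ran downward. Moved down by 0.19, 72 members would be negative and 19 positive. Moved up by 0.19, 28 would be negative and 60 positive. The shift was measured over probes without gene names, and its size for the members' own probes is not known here. Differences between members are not touched by a common shift.

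Before the complexes are taken in turn, the promoters of 4 genes with small p are shown, 2 with positive and 2 with negative changes, because regulators of mitochondrial genes such as NRF1, GABP and YY1 act through short motifs near the start site. The windows are from RefSeq (GRCm38.p6), 250 bases before to 50 bases after the start, and 78 of the 92 members have one. Mrpl14 and Mrpl28 had the smallest p of the positive members. Among the negative ones Uqcrb, Ndufa2 and Mrps35 had smaller p than 1 or both of those shown (Mrpl50 and Atp5g3); their windows are not used here. Capitals mark matches to GCGCA, any base and GCGC in a row (NRF1), CCGGAAGT (ETS factors such as GABP) or AAGATGGCG (YY1), searched on both strands; no matches overlap in these windows.
Mrpl14, chr17:45686099-45686398, plus strand: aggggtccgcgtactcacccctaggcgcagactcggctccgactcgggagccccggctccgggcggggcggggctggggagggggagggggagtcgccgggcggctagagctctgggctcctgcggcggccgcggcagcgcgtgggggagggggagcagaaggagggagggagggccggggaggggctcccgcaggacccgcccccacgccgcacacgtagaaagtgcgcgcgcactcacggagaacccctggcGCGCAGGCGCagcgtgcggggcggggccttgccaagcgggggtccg
Mrpl28, chr17:26123253-26123552, plus strand: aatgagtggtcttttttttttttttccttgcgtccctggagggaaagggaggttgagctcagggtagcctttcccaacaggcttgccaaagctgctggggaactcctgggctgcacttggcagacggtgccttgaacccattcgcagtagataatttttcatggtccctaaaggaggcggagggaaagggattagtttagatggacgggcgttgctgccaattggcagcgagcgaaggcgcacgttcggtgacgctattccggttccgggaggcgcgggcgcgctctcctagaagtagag
Mrpl50, chr4:49521034-49521333, minus strand: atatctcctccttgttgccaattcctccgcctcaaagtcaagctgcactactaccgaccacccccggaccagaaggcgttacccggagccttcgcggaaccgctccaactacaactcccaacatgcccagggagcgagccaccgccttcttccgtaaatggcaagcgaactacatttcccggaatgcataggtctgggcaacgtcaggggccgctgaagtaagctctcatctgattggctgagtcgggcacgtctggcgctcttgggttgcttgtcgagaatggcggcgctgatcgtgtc
Atp5g3, chr2:73911277-73911576, minus strand: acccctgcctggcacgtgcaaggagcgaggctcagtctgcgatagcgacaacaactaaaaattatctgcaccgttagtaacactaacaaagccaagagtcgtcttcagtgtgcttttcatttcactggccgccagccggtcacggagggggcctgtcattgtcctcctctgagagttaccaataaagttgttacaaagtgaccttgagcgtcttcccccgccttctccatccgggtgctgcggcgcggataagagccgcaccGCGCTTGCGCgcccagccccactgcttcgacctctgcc

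Mrpl14, with the highest log2 change, and Atp5g3, with a negative one, each held 1 NRF1 match, and the windows of Mrpl28 and Mrpl50 held none of the 3 motifs. Over all 80 member windows (a gene can have several), 15 (18.8%) held the NRF1 motif, 10 (12.5%) the ETS motif and 8 the YY1 motif. The shares of all 32851 windows with them were 4.6%, 3.89% and 1.4%, and that with any of the 3 was 9.24%, against 32 member windows. The median GC content of the windows was 57.2% for members and 52.7% for all. By motif, the median log2 change of members with and without it was 0.06 and -0.11 for NRF1, 0.11 and -0.11 for ETS, and -0.14 and -0.10 for YY1 per the authors' deposited table. The 31 members with any of the 3 motifs had a median log2 change of 0.06 per the authors' deposited table, 15 of them negative. For the 47 members without one, the median was -0.11 and 29 were negative per the authors' deposited table. A match is a run of letters and was not tested as a binding site.

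In complex I, which takes electrons from NADH, 9 of 23 entries had positive changes per the authors' deposited table. Of the core subunits, Ndufs1, which carries iron-sulfur clusters, was at 0.12 ± 0.076 (SE, p = 0.163) in log2 per the authors' deposited table. Its mean log2 level was 4.85, close to the lowest listed level of 4.62, where changes are compressed. Among 20 accessory entries, 7 were positive and 13 negative, and 4 and 2 of them had an unadjusted p under 0.05 per the authors' deposited table. Together these are 30.0% of the accessory entries, against 19.9% of all entries and 42.9% of those at mean log2 levels of 5.5 and above.

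Ndufa8, an accessory subunit facing the intermembrane space, had the smallest p of complex I, with a log2 change of 0.56 ± 0.114 (SE) per the authors' deposited table. That is a fold change of 1.47, with an unadjusted p of 0.00194 and a Benjamini-Hochberg adjusted p of 0.161. Ndufb6 and Ndufa11, both of the membrane arm, had log2 changes of 0.46 and 0.40 per the authors' deposited table (p = 0.00446 and 0.0158). Ndufa9, of the matrix arm near the ubiquinone site, was at 0.33 per the authors' deposited table (p = 0.0217). In the opposite direction, Ndufa2, a small subunit of the matrix arm, had a log2 change of -0.26 ± 0.063 (SE, p = 0.00497, adjusted p = 0.253) per the authors' deposited table. Ndufa4, named for complex I but since assigned to complex IV, was at -0.35 per the authors' deposited table (p = 0.0437). The most negative accessory entries per the authors' deposited table were Ndufa1 at -0.45 and Ndufa6 at -0.41, and the 95% intervals of both include 0. The 95% intervals, computed from the authors' deposited table, were 0.29 to 0.83 for Ndufa8 and -0.41 to -0.11 for Ndufa2, which have the smallest p on each side of 0 in the complex; the difference between the 2 genes was not tested.

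Of assembly factors that build complex I without being part of it, Ndufaf1 had a log2 change of -0.25 (p = 0.248) and Ndufaf2, listed under its older name NDUFA12L and counted above among accessory entries, one of -0.31 (p = 0.0963) per the authors' deposited table. Complex II, which links the citric acid cycle to the chain, had 2 listed members. The membrane anchor Sdhc was at -0.13 ± 0.058 (SE, p = 0.0604) and the flavoprotein Sdha at 0.06 ± 0.057 (SE, p = 0.325) in log2 per the authors' deposited table. Sdha had a mean log2 level of 4.87, also close to the lowest listed level, and Sdhc one of 7.39.

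All 5 listed members of complex III, which passes electrons from ubiquinol to cytochrome c, had negative log2 changes per the authors' deposited table, with a median of -0.18. Negative changes made up 49.0% of all entries. Uqcrb, a small subunit involved in ubiquinone binding, had the most negative log2 change of all members, -1.0 ± 0.198 (SE, 95% interval -1.47 to -0.53), per the authors' deposited table. Its fold change there was -2.0, its unadjusted p 0.00169 and its Benjamini-Hochberg adjusted p 0.149. The mean log2 level of Uqcrb was 5.45, which puts it among the 15 members under 5.5, where changes are compressed. The median level over all listed entries of the authors' deposited table was 4.94, and 12112 of the 16381 were under 5.5. The other 4 had smaller values per the authors' deposited table: -0.15 for the hinge protein gene Uqcrh (p = 0.0639), -0.21 for the core protein gene Uqcrc1 (p = 0.252), -0.18 for Uqcr11 (p = 0.269) and -0.10 for Uqcrc2 (p = 0.428). These 4 values lie between -0.21 and -0.10. The 95% intervals of Uqcrc1 (-0.61 to 0.19) and Uqcr11 (-0.54 to 0.18), computed from the authors' deposited table, overlap that of Uqcrb, and the difference between Uqcrb and the others was not tested. Only Uqcrc1 among those 4 lay beyond the shift of 0.19 between scalings, which was measured downward and would make all of them more negative.

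Complex IV, cytochrome c oxidase, had 8 listed members, 3 with positive and 5 with negative log2 changes per the authors' deposited table. Cox6a1, the isoform of subunit VIa in tissues other than striated muscle, had a log2 change of 0.48 ± 0.153 (SE, p = 0.0173, adjusted p = 0.453) per the authors' deposited table. The muscle isoform Cox6a2, which is not a member, was at 0.75 ± 0.164 (SE, p = 0.00291, adjusted p = 0.196) per the authors' deposited table. Cox6c had a log2 change of -0.47 ± 0.228 (SE, p = 0.0807) per the authors' deposited table. Cox7a2l, which joins complexes III and IV into supercomplexes, was at -0.14 (p = 0.163) and Cox7a2, the isoform of other tissues than muscle, at -0.17 (p = 0.288) in log2 per the authors' deposited table. Cox4i2, Cox6b2 and Cox7b2, isoforms of lung or testis, lay between -0.09 and 0.08 in log2 with mean log2 levels from 4.81 to 5.01 per the authors' deposited table.

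The ATP synthase had 6 listed entries. Atp5g3 encodes the membrane ring subunit c and had a log2 change of -0.63 ± 0.194 (SE, p = 0.0153, adjusted p = 0.432) per the authors' deposited table. Atp5g2, 1 of the other genes for the same mature subunit, was at 0.09 ± 0.069 (SE, p = 0.235) per the authors' deposited table. Their 95% intervals were -1.09 to -0.17 and -0.07 to 0.25, and the difference between the 2 genes was not tested. Atp5e, the epsilon subunit of the catalytic head, was at 0.17 (p = 0.0734) and Atp5l, subunit g of the membrane part, at -0.16 (p = 0.211) in log2 per the authors' deposited table. The entry ATP5SL is no ATP synthase subunit; its current symbol is Dmac2, an assembly factor of complex I, and its log2 change was -0.14 (p = 0.16) per the authors' deposited table.

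**Figure D2:**
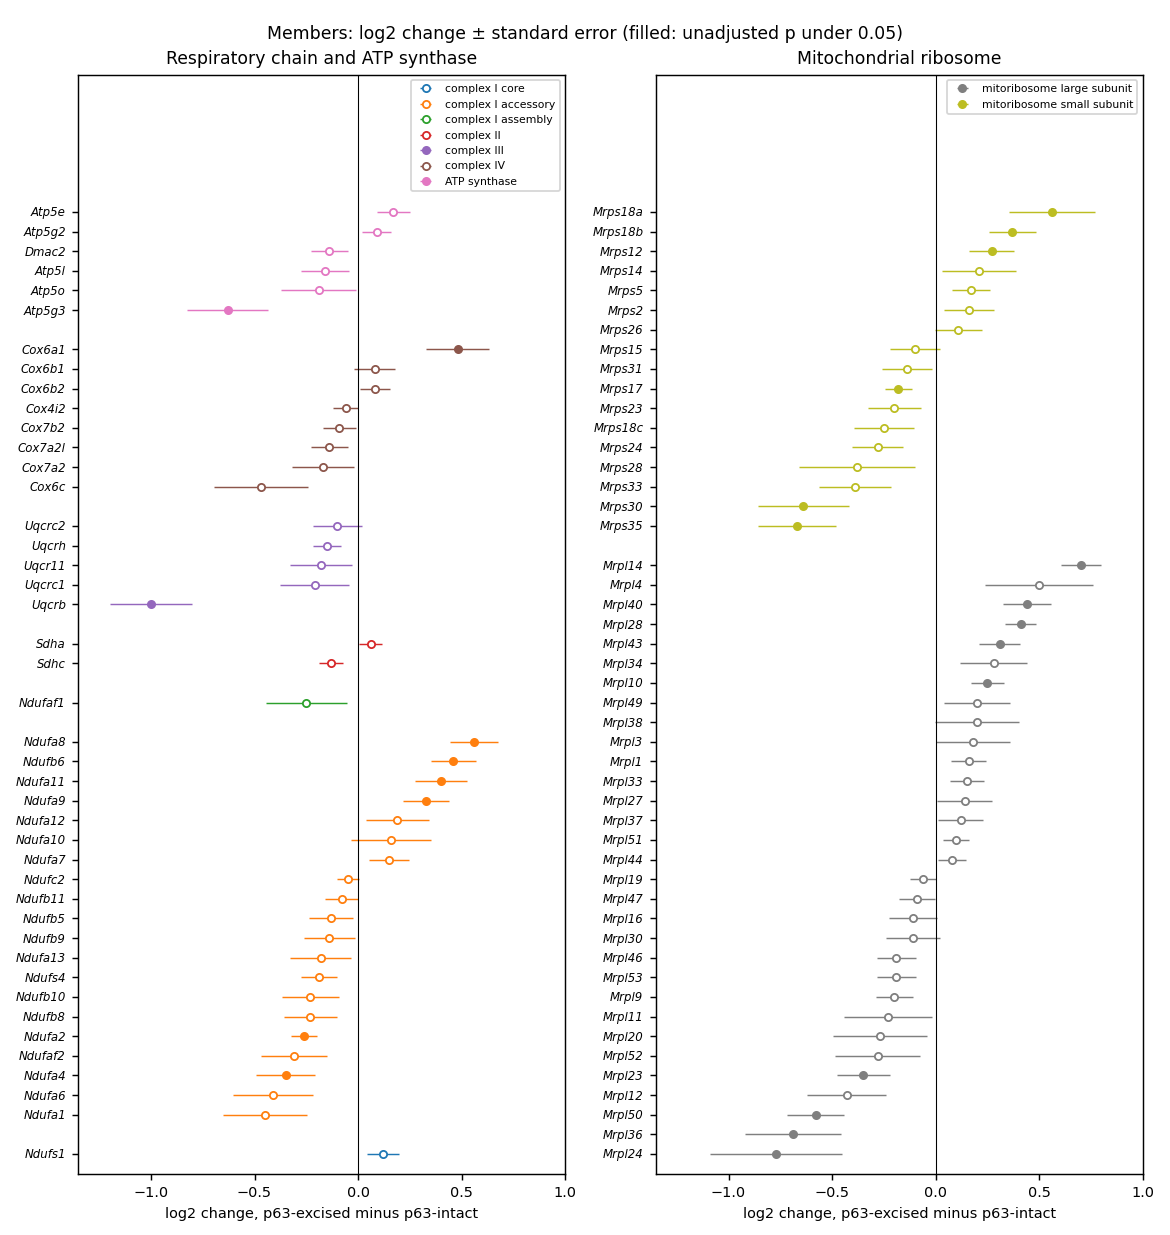
Each point is the log2 change of 1 member (p63-excised minus p63-intact, x axis) per the authors' deposited table, with a bar of 1 standard error to each side; members are grouped and coloured by complex or ribosomal subunit, and filled points have an unadjusted p under 0.05; 1 member is not drawn. Filled points stand on both sides of 0 among complex I accessory subunits and in both ribosomal subunits, Uqcrb at -1.0 is the most negative and Mrpl14 at 0.70 the most positive.

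The large subunit of the mitochondrial ribosome, which forms peptide bonds, had 31 listed members, 16 with positive and 15 with negative log2 changes per the authors' deposited table. Mrpl14, a conserved protein at the interface between the subunits, had the highest change and the smallest p of all members, with a log2 change of 0.70 ± 0.097 (SE, 95% interval 0.47 to 0.93) per the authors' deposited table. Its fold change there was 1.63 and its unadjusted p 0.000215. Its Benjamini-Hochberg adjusted p was 0.0507 over 45281 tests, which misses the threshold, and 0.0183 if the 16381 listed entries are taken as all tests. Mrpl28 had a log2 change of 0.41 ± 0.075 (SE, p = 0.00106) per the authors' deposited table, with adjusted p-values of 0.114 and 0.0413 for the same 2 numbers of tests. These 2 were the members that passed with the smaller number of tests, by which 2.97% of all listed entries passed.

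Further large subunit members with positive log2 changes per the authors' deposited table were Mrpl40 at 0.44 (p = 0.00751), Mrpl43 at 0.31 (p = 0.0174) and Mrpl10, whose protein holds the stalk that binds translation factors, at 0.25 (p = 0.0191). On the negative side Mrpl50, a protein without bacterial counterpart, was at -0.58 ± 0.137 (SE, p = 0.00431, adjusted p = 0.239) in log2 per the authors' deposited table. Mrpl24 had a log2 change of -0.77 ± 0.32 (SE, p = 0.048) and Mrpl36 one of -0.69 ± 0.232 (SE, p = 0.0219) per the authors' deposited table. Proteins of 1 particle thus had transcripts whose changes reached from -0.77 to 0.70. Mrpl12, which binds translation factors at the stalk, was at -0.43 (p = 0.0615) per the authors' deposited table.

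The small subunit, which reads the messenger RNA, had 17 listed members by name, 7 positive and 10 negative per the authors' deposited table. Mrps35 was at -0.67 ± 0.189 (SE, p = 0.0102, adjusted p = 0.353) in log2 per the authors' deposited table. Mrps30, which bears a small subunit name but sits in the large subunit of the mammalian ribosome, was at -0.64 ± 0.219 (SE, p = 0.0234) per the authors' deposited table. Mrps18a, Mrps18b and Mrps18c descend from 1 bacterial gene, and the protein of Mrps18a also sits in the large subunit. Their log2 changes per the authors' deposited table were 0.56 ± 0.207 (SE, p = 0.0322), 0.37 ± 0.115 (SE, p = 0.0155) and -0.25 ± 0.144 (SE, p = 0.127). Mrps12, of the decoding centre, was at 0.27 (p = 0.041) and Mrps17 at -0.18 (p = 0.0328) per the authors' deposited table.

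Across both kinds of complex, 29 of 44 respiratory chain and ATP synthase members (65.9%) and 25 of 48 mitochondrial ribosome members (52.1%) had negative changes per the authors' deposited table. The negative share was 49.0% over all entries and 52.0% over entries at mean log2 levels of 5.5 and above. Their medians were -0.14 and -0.08 in log2, and 9 (20.5%) and 15 (31.2%) of them had an unadjusted p under 0.05 per the authors' deposited table, against 19.9% of all entries and 42.9% of entries at mean log2 levels of 5.5 and above. The medians of both kinds of complex are smaller in size than the shift of 0.19 between scalings. That shift was measured downward, a direction that would make both medians more negative.

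Transcripts made from mitochondrial DNA itself, a list added after the table had been seen, gave 7 entries, of which 2 had positive and 5 negative log2 changes per the authors' deposited table. The complex IV gene COXIII was at -0.28 ± 0.133 (SE, p = 0.0752), the complex III gene CYTB at -0.13 ± 0.083 (SE, p = 0.164) and the ATP synthase gene ATP8 at -0.35 ± 0.282 (SE, p = 0.258) in log2 per the authors' deposited table. The complex I genes were at -0.45 (ND2), -0.25 (ND1), 0.09 (ND6) and 0.29 (ND5) per the authors' deposited table, with p from 0.308 to 0.38. None of the 7 had an unadjusted p under 0.05 per the authors' deposited table.

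Genes that copy and express mitochondrial DNA were all on the negative side: 8 of 8 listed (of 12 in the list), against 49.0% of all entries. Their median log2 change was -0.16 per the authors' deposited table. Of these 8, 5 lie within the shift of 0.19 between scalings, which was measured downward and would make them more negative. Mean log2 levels were under 5.5, where changes are compressed, for 5 of the 8. None of the 8 passed over all probes, and 1 passed over the listed entries, which are too few tests. An unadjusted p under 0.05 was found for 3 (37.5%), against 19.9% of all entries, per the authors' deposited table. Mterf1a, a mitochondrial transcription termination factor listed as MTERF, was at -0.58 ± 0.099 (SE, p = 0.000728, adjusted p = 0.095) in log2 per the authors' deposited table, and it has a near-identical copy that its probe may also read. Polg2, the accessory subunit of the mitochondrial DNA polymerase, was at -0.24 (p = 0.00517) and Tfam, which packs mitochondrial DNA and starts its transcription, at -0.45 (p = 0.0476) per the authors' deposited table. The mean log2 level of Polg2 was 4.94.

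In the other lists of mitochondrial genes no entry passed over all probes. Regulators of mitochondrial genes had 2 positive and 4 negative of 6 listed per the authors' deposited table, with Myc at 0.26 (p = 0.0152), the coactivator gene Ppargc1a at -0.28 (p = 0.0431) and its relative Pprc1 at -0.27 (p = 0.102). Myc and Ppargc1a had mean log2 levels of 5.0 and 4.99, and 3 of these 6 regulators were under 5.5. Assembly factors of the complexes were positive for 9 of 14 per the authors' deposited table, with Atpaf2 of the ATP synthase at 0.30 (p = 0.0336), Bcs1l of complex III at -0.28 (p = 0.0504) and Ttc19, also of complex III, at -0.18 (p = 0.0813). Among 12 electron carrier genes 6 were positive per the authors' deposited table, with Cycs, cytochrome c, at -0.38 (p = 0.00623), Coq7 of ubiquinone synthesis at 0.40 (p = 0.107) and the flavoprotein gene Etfa at -0.27 (p = 0.135).

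Citric acid cycle genes were negative for 6 of 9 per the authors' deposited table, with Ogdh, of the 2-oxoglutarate dehydrogenase, at 0.64 (p = 0.068) and Idh3b at -0.24 (p = 0.114). Mitochondrial translation factors were negative for 3 of 5 per the authors' deposited table, with Mrpl58, a ribosome rescue factor listed as ICT1, at -0.46 (p = 0.0447), Ptcd3 at -0.23 (p = 0.0575) and the initiation factor gene Mtif2 at -0.17 (p = 0.084). Of import and inner membrane genes 9 of 14 were negative per the authors' deposited table, with the import chaperone gene Timm8a1 at -0.65 (p = 0.00367), Timm17a at -0.20 (p = 0.0747) and Timm9 at -0.29 (p = 0.0893).

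**Figure D3:**
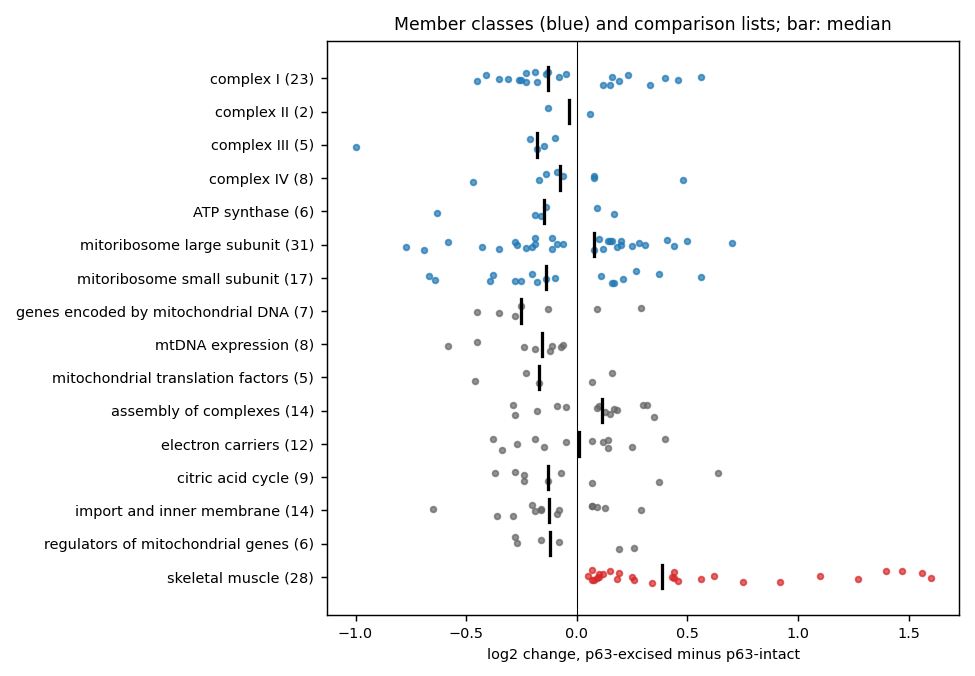
Each point is the log2 change (p63-excised minus p63-intact, x axis) of 1 entry of the authors' deposited table, black bars are medians, and numbers in parentheses are listed entries; member classes are blue, other mitochondrial lists grey and skeletal muscle markers red. The complex I classes are drawn together as 1 row. Medians of the other member classes lie between -0.18 (complex III) and 0.08 (large ribosomal subunit). The 8 genes of mitochondrial DNA expression are all below 0, and all 28 muscle markers are above 0.

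Skeletal muscle is rich in mitochondria, and its markers lay on 1 side of 0. Of 30 muscle markers, 28 were listed and all 28 had positive log2 changes per the authors' deposited table, from 0.05 to 1.60 with a median of 0.39. Among all 16381 listed entries, 8351 were positive. Over all probes 0 of the muscle markers passed. Over the listed entries, which are too few tests, 2 passed (Pgam2 with an adjusted p of 0.0344 and Des with 0.0379). An unadjusted p under 0.05 was found for 11 (39.3%), against 19.9% of all entries, per the authors' deposited table. Of the 28, 11 lie within the shift of 0.19 between scalings. The muscle markers with the smallest p per the authors' deposited table were the glycolytic enzyme gene Pgam2 at 0.43, the intermediate filament gene Des at 1.40 and Cox6a2 at 0.75. Their mean log2 levels ran from 4.81 to 6.97, and 20 of 28 were under 5.5 per the authors' deposited table. The part of muscle RNA in the members' values was not tested.

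Markers of other cell types lay on both sides of 0. The fat markers Fabp4 and Cidec, the 2 of 8 listed, were at -0.11 and 0.08 in log2 with mean log2 levels of 4.94 and 4.83 per the authors' deposited table. Of 8 squamous markers 4 were positive per the authors' deposited table, with Krt15 at 2.76, Sfn at -0.64 and Trp63 at -0.25. Leukocyte markers per the authors' deposited table held Lyz2 at -1.73, Cd68 at 0.47 and Ptprc at 0.04. The fibroblast genes Lum, Dcn and Col3a1 were at -0.70, -0.90 and -0.29, and the endothelial genes Cdh5 and Vwf at 0.28 and 0.16 per the authors' deposited table. The part of such cells in the members' values was not tested.

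The members' positions, taken from RefSeq, were not used to choose them, and chromosomes 13 and 17 are singled out here after their values were seen. On chromosome 17, 6 of 8 members had positive changes with a median of 0.39 in log2, and 5 of them (Mrpl14, Mrpl28, Mrps18a, Mrps18b and Ndufa11) had an unadjusted p under 0.05 per the authors' deposited table. On chromosome 13, 5 of 6 members had negative changes with a median of -0.48 in log2, and 3 of them (Uqcrb, Mrpl36 and Mrps30) had an unadjusted p under 0.05 per the authors' deposited table. Over all entries 19.9% had such a p, and 42.9% of those at mean log2 levels of 5.5 and above. Other entries at these levels leaned the same way on both chromosomes per the authors' deposited table. Of 204 such entries on chromosome 17, 41.7% were negative with a median of 0.17. Of 128 on chromosome 13, 63.3% were negative with a median of -0.20 per the authors' deposited table. On 7 of the 19 chromosomes with members (1, 4, 6, 7, 10, 11 and 15) the members' median and that of these other entries lay on opposite sides of 0 per the authors' deposited table. Members were taken at all levels, unlike the other entries. Some of these medians lie close to 0, as on chromosomes 10 (0.005, from 2 members) and 11 (-0.03). The gap was widest on chromosome 15, where 3 of 4 members were negative with a median of -0.28, while 41.0% of 144 other entries were negative with a median of 0.18 per the authors' deposited table. On chromosome 1, 5 of 7 members were positive with a median of 0.12, while 66.5% of 182 other entries were negative with a median of -0.22 per the authors' deposited table. That median of 0.12 is the value of Ndufs1, at a mean log2 level of 4.85. These are descriptions over 1 to 8 members a chromosome, without a test.

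**Figure D4:**
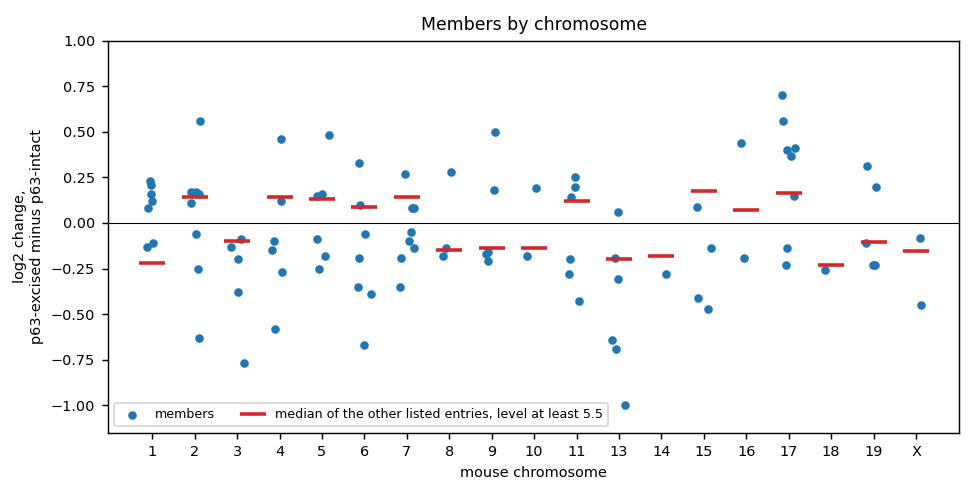
Blue points are the log2 changes (p63-excised minus p63-intact, y axis) of single members at all levels, per the authors' deposited table, by mouse chromosome (x axis). Red bars are the medians of the other listed entries of that chromosome at mean log2 levels of 5.5 and above. Members reach from 0.70 on chromosome 17 down to -1.0 on chromosome 13, where the red bars lie at 0.17 and -0.20.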

How the data were processed

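Whole-tumour RNA of 6 orthotopic mouse tumours, grown from transplanted carcinoma cells, was measured on Illumina bead arrays. As transplants, they need not stand for 6 separately arisen carcinomas. Gene names come with the authors' deposited table of 1 comparison, which holds log2 changes with signed folds, log2 levels averaged over arrays, t and log-odds scores, and p-values before adjustment, per the file headers. Its normalization, and how probes were joined into genes, are not stated in the labels. They also deposited probe intensities with detection p-values, and a value table of log2 intensities. The probe intensities have the same mean signal on all 6 arrays. The submitters' processing notes name R 2.12.0.

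Members and lists were chosen with earlier results of these data known. Benjamini-Hochberg adjustment of the authors' p-values assumed 45281 tests, the most there can be, since 16381 entries are listed; 16381 tests were an alternative. Intervals use 6.7 degrees of freedom, solved from t and p, and an SE from values rounded to 2 decimals. Named members are those past the threshold (none), up to 4 of smallest p in each of 9 classes and the 3 extremes each way, and up to 3 of each comparison list; others are named where described, after their values were seen. Some items that the rule takes are not reported here by name. Current symbols came from RefSeq (GRCm38.p6): 89 members matched directly and 3 through older symbols. The array's own build is unknown here.

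Over all probes, limma 3.58.1 (R 4.3.3) was run on neqc values (offset 16), with probes detected at p under 0.05 on at least 3 arrays, and called 604 of 13727 probes. It was tested on simulated data. Same-numbered tumours are not paired by the labels, and the correlations of their deviations from group means were 0.339, 0.383 and -0.063. Python 3.11.15 and pandas 2.3.3 were used otherwise. The number of arrays limits the precision.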

Additional observations from a re-analysis of the deposited data

How the results depend on the processing

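Over the whole array, 604 probes passed in the limma test; 50 passed with arrays scaled to 1 median, 380 in the authors' deposited value table, 344 without background correction, 203 with no filter on dim probes, and 186 to 631 when 1 array was left out, the cause not having been tested. The fewest, 186, came without p63-intact array 3, and without p63-intact array 1 or 2 or p63-excised array 1 or 3 there were 301, 224, 328 or 233. A fit with the replicate block gave 1324 calls, but the labels do not pair the tumours. A background offset of 50 gave 403. No paired or leave-one-out fit was possible for the members, because the authors' deposited table holds no values per array.

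Of the members, 0 passed over 45281 tests, against 1.16% of all listed entries. Over the 16381 listed entries of the authors' deposited table, too few tests because the list was cut by p, 2 passed. These were Mrpl14 with an adjusted p of 0.0183 and Mrpl28 with 0.0413, and 2.97% of all listed entries passed so. An unadjusted p under 0.05 was found for 24 members (26.1%) and 19.9% of all entries. At mean log2 levels of 5.5 and above it was found for 29.9% of members and 42.9% of entries. The members' median log2 change ran from -0.14 to -0.03 over the 5 settings run (all members, 2 level minimums, without 4 entries that are no subunit, and relative to entries of like level), and the share of negative changes from 53.3% to 58.7%.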
